A study of Mus musculus with 16 samples.

Results

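Igf2, H19, Igf2r, Airn and Grb10 are imprinted genes that set fetal growth through the insulin-like growth factor (IGF) pathway, and these 5 genes, chosen by name among the 50600 genes counted, were followed in neural cells from a cross in which the parent of each allele is known. Imprinted genes are expressed from the allele of 1 parent, following DNA methylation marks laid down in the germ line. Igf2 encodes a growth factor made from the paternal allele, and H19 is a noncoding RNA made from the maternal allele of the neighbouring gene; both share enhancers and an imprinting control region. Igf2r encodes the receptor that takes IGF2 to the lysosome for degradation and is expressed from the maternal allele in most mouse tissues, while Airn is the noncoding RNA that runs antisense over Igf2r from the paternal allele and is known to silence the paternal Igf2r promoter. In neurons Igf2r is known to escape imprinting. Grb10 encodes an adaptor that dampens insulin and IGF1 receptor signalling, with maternal expression in most tissues and paternal expression from its own promoter in neurons.

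All cells came from a female and a male F1 hybrid mouse ES cell (ESC) line carrying a 129/Sv maternal and a Cast/EiJ paternal genome, which were differentiated into neural progenitor cells (NPCs) in medium with EGF and FGF2 and then cloned, so that each line is the progeny of 1 picked colony. RNA-seq covered 16 libraries of 12 clones: astrocytes obtained from 5 NPC clones by 48 h of BMP4 with less FGF2 (129, C2 and G4, female; mC3 and mE6, male; poly(A)-enriched RNA), 3 NPC clones with poly(A)-enriched RNA (F5, female; mG2 and mG6, male) and 4 male NPC clones sequenced after depletion of ribosomal RNA (rRNA), each as a pair of libraries, named Ch3, Ch5, Ch7 and Ch8 (the Ch clones). No clone was analysed here in both states. Libraries of a Ch clone share that clone and nothing in the labels says that they came from separate cultures, so p-values among the Ch clones measure the spread between libraries, which may be technical. Counted reads ranged from 78257443 to 93963293 in astrocytes, from 69925081 to 105892734 in poly(A) NPC clones and from 20871111 to 30920672 in the Ch libraries, of which 33.4 to 34.8%, 30.5 to 31.8% and 18.9 to 21.1% could be assigned to an allele. The astrocyte marker Gfap was at 63.1 to 1885 CPM (all reads of a gene, scaled to library size by TMM) in astrocytes and at 0.459 to 3.56 CPM in the NPC clones, and the progenitor marker Nes was at 59.0 to 117 against 679 to 1636 CPM. Poly(A) NPC and Ch clones differ both in clone and in RNA preparation, which cannot be told apart.

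Allelic expression is given as the percentage of allele-specific reads that came from Cast (% Cast), over the clone, with a 95% Wilson interval that covers counting error only. With the limits used in the study, a gene with at least 20 allele-specific reads was called monoallelic below 15% or above 85% Cast and biallelic from 35 to 65%. In the 8 male clones, whose only X chromosome is the 129 one, 0.0920 to 0.288% of X-linked allele-specific reads were assigned to Cast, which gives the rate of wrong assignment. Igf2r and Airn had 20 or more allele-specific reads in all 12 clones, Igf2 and H19 in 2 clones each and Grb10 in none. The results below therefore rest mainly on the Igf2r and Airn locus.

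Airn (ENSMUSG00000078247.3, a lncRNA at chromosome 17, 12741311 to 12859884, GRCm38) and Igf2r (ENSMUSG00000023830.13, protein-coding, 12682406 to 12769706) lie on opposite strands and overlap. The start of Igf2r lay 28395 bp downstream of the start of Airn, inside the Airn transcript, which in the RefSeq annotation continued for another 90178 bp. Reads were counted by strand, and how many Airn reads were still counted as Igf2r, or the reverse, was not tested. The 250 bases before each start are shown to place both promoters, read 5′ to 3′ on the strand of the gene from RefSeq (GRCm38.p6), with CpG dinucleotides, the sites of methylation, in capitals. The Igf2r promoter is chr17:12769707-12769956 on the minus strand and the Airn promoter chr17:12741061-12741310 on the plus strand.
Igf2r: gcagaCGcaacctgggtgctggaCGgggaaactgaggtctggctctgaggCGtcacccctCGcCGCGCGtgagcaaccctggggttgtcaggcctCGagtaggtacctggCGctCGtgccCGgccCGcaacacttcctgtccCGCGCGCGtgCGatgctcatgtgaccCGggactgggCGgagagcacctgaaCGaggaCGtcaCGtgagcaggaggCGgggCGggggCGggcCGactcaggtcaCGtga
Airn: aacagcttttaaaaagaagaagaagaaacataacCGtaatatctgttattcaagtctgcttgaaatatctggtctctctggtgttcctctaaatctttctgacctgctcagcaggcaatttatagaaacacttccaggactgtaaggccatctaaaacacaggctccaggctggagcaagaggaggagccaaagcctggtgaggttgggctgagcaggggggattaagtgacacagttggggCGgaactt
The Igf2r promoter held 27 CpGs, searched as CG, which reads the same on both strands, and 69.2% G or C. As many CpGs were held by 8.56% of all 32851 RefSeq promoters of this length. The Airn stretch held 2 CpGs and 45.6% G or C, and 81.2% of promoters held at least as many. Bases after each start were not searched and methylation was not measured, so these counts do not show which of the 2 promoter regions carries a mark. No promoter of H19 was printed, and Igf2 and Grb10, with 4 and 2 listed starts, were too lowly expressed here for their promoters to be read against the data.

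Airn was expressed from the paternal Cast allele in 7 of 12 clones, from the maternal 129 allele in 1 clone and from both alleles in 4 clones. In astrocytes the Cast share was 99.7% in mC3 (interval 98.9 to 99.9), 100% in mE6, 66.9% in C2 (65 to 68.7), 64.1% in G4 (61.8 to 66.3) and 0.232% in clone 129 (0.0788 to 0.679). In poly(A) NPC clones it was 99.8% in mG2, 75.7% in F5 (71.6 to 79.4) and 68.3% in mG6 (65.7 to 70.7). No 129 read of Airn was seen in Ch3, Ch5, Ch7 or Ch8, among 163, 157, 120 and 146 allele-specific reads, which allows a 129 share of up to 1.84, 1.91, 2.50 and 2.05%. In clone 129 only 3 of 1295 allele-specific reads came from Cast, the opposite of the parental direction known for Airn.

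Igf2r was expressed mainly from the maternal 129 allele in the same 7 clones that expressed Airn from Cast. Its Cast share was 6.68% in mC3 (5.78 to 7.71), 10.1% in mE6 (8.55 to 11.8), 7.37% in mG2 (6.25 to 8.68), 8.83% in Ch3 (7.14 to 10.9), 4.81% in Ch5 (3.56 to 6.46), 5.25% in Ch7 (3.76 to 7.28) and 6.24% in Ch8 (4.82 to 8.06). All of these values exceeded the X-linked rate of wrong assignment, so reads counted as paternal Igf2r were measured in each of the 7 clones. The Cast share was 57.9% in mG6 (54.2 to 61.4), 63.2% in G4 (55.3 to 70.4), 63.4% in F5 (56.6 to 69.7) and 66.9% in C2 (59.6 to 73.3), the 4 clones with Airn from both alleles, and in C2 and G4 it was close to the share of Airn. Clone 129, with Airn from the 129 allele, had Igf2r at 83.1% Cast (80.7 to 85.2), just below the limit for monoallelic expression. Over the 9569 autosomal genes with 20 allele-specific reads in all 12 clones, 16.6% were monoallelic in at least 1 clone, 0.878% in 7 or more clones, as were Igf2r and Airn, and 0.993% from Cast in some clones and from 129 in others, as was Airn.

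The reads of both genes were set side by side for each allele, as RPM (allele-specific reads scaled to library size in the same way as CPM), without correction for the number of informative SNPs in a gene. On the 8 alleles with at most 3 Airn reads (at most 0.0307 RPM), Igf2r had 9.15 to 29.4 RPM with a median of 15.6. On the 16 alleles with more Airn reads (1.08 to 20.9 RPM), Igf2r had 0.591 to 4.90 RPM with a median of 1.35. The ranges did not overlap, and no test is given, since these sets of alleles were formed from a measured value. The 8 alleles were the 129 allele of the 7 clones with paternal Airn and the Cast allele of clone 129. In clone 129 Igf2r had 9.15 RPM from Cast and 1.86 from 129, where mC3, also an astrocyte clone, had 2.1 and 29.4. In C2, G4 and F5 both Igf2r alleles were low, at 1.19 to 1.52 RPM from Cast and 0.695 to 0.753 from 129. Clone mG6 stood between, with 4.90 RPM of Igf2r from Cast and 3.57 from 129 beside 10.8 and 5.02 of Airn. Each allele of mG6 thus had more of both transcripts than the same allele of F5, where Airn was at 3.35 and 1.08.

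**Figure D1:**
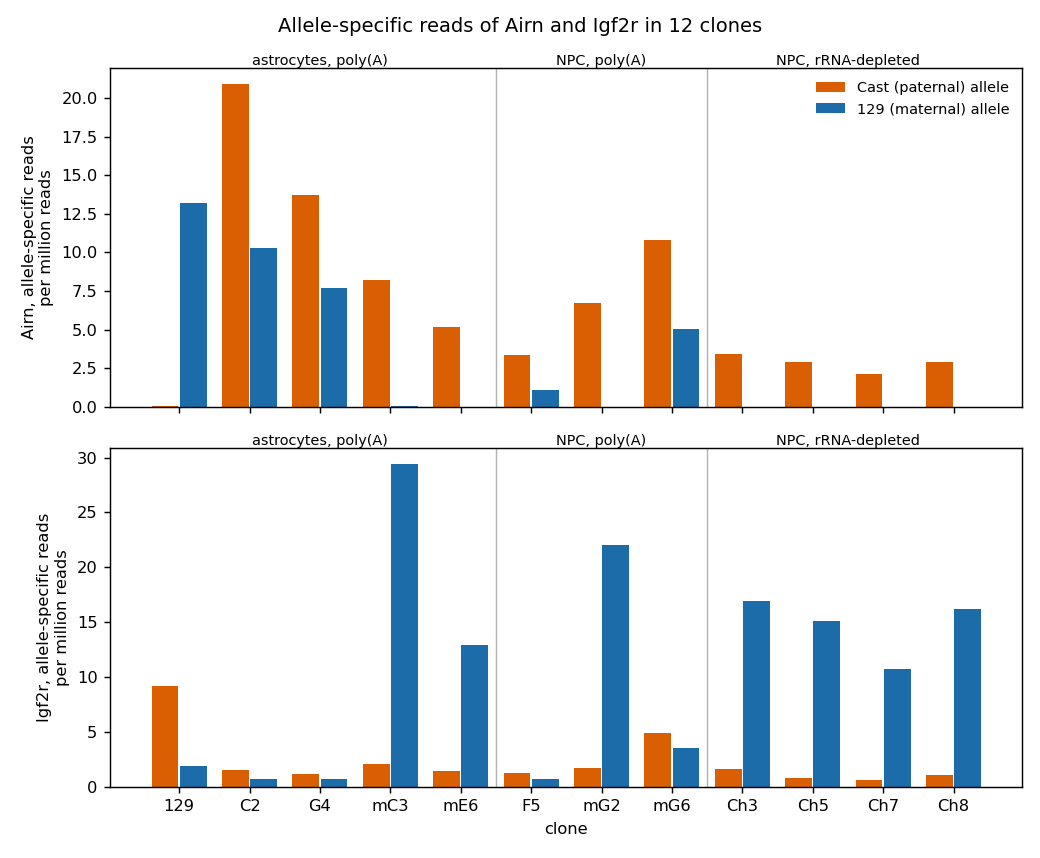
Allele-specific reads (RPM) of Airn (top) and Igf2r (bottom) from the Cast and the 129 allele, one pair of bars per clone, in the 3 groups of clones. The tall 129 bars of Igf2r, 10.7 to 29.4, stand in the 7 clones without 129 bars of Airn, and clone 129 shows the mirror image.

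**Figure D2:**
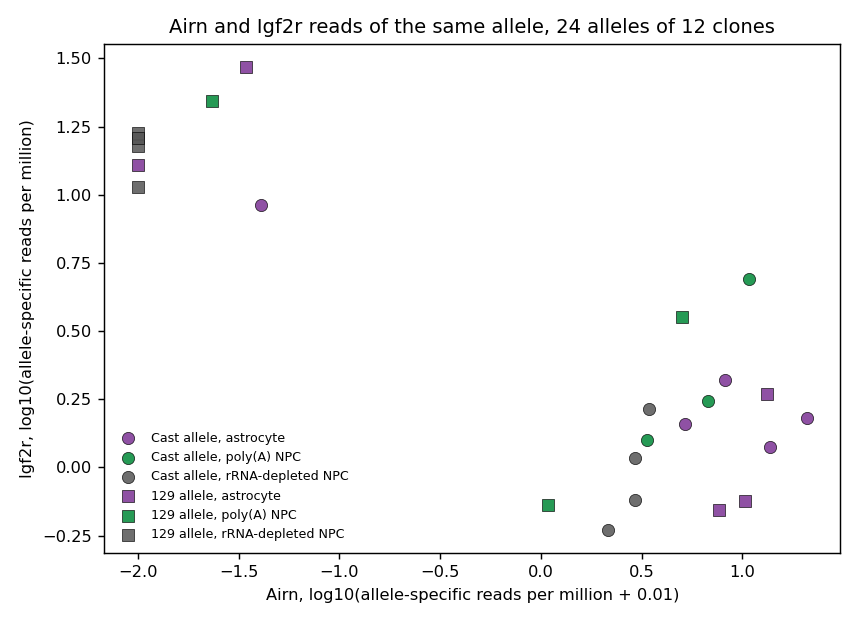
Igf2r against Airn for each of the 24 alleles of the 12 clones, in RPM on log10 axes (0.01 was added to Airn so that alleles without reads can be drawn). The 8 alleles at the upper left, with at most 3 Airn reads, all lie above the 16 others.

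Total Igf2r expression followed the same division of the clones. It was 161 CPM in mC3 and 76.3 in mE6, against 51.8 in clone 129, 12 in C2 and 10.5 in G4. Among poly(A) NPC clones it was 127 CPM in mG2, 41.3 in mG6 and 9.65 in F5. The Ch clones had 130, 113, 81.1 and 123 CPM in Ch3, Ch5, Ch7 and Ch8. The 7 clones with an Igf2r Cast share under 15% thus held the 7 highest levels, 76.3 to 161 CPM, and the 5 other clones the lowest, 9.65 to 51.8 CPM. In a bulk culture, fewer cells expressing a gene and less RNA per cell cannot be told apart. The 5 clones with low Igf2r included all 4 female clones and the male clone mG6, a division by ESC line that was noticed in the data and not tested.

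The relation of Cast share to level was tested for every gene with 20 allele-specific reads in all 12 clones, after centring both on the mean of the astrocyte, poly(A) NPC and Ch clones, by an exact two-sided permutation of Pearson's r within these groups (17280 arrangements). Of 10303 genes, 0 passed an adjusted p of 0.05 (0%), also with Spearman's rho, and 1023 had an unadjusted p under 0.05. The smallest exact permutation p of Pearson's r among these genes was 0.000116. After adjustment over 10303 genes, a p that small passes only if many genes share it. The count of 0 is therefore no evidence that share and level are unrelated. Igf2r had an unadjusted exact permutation p of 0.0711 (adjusted p = 0.556) and Airn of 0.521 (adjusted p = 0.866). With 1 clone left out at a time, the unadjusted exact permutation p of Igf2r was 0.0704 to 0.221, except without clone 129, where it was 0.0469. Igf2r in clone 129 is both fairly low and mostly from Cast, so leaving that clone out is no separate test. No coefficient is given for the relation of share to level, since the clones fell into separate clusters of share, 4.81 to 10.1% and 57.9 to 83.1% for Igf2r. The same holds for the share of Airn against that of Igf2r and for the level of Airn against the share of Igf2r.

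Airn levels were 32.1 CPM in clone 129, 80.0 in C2, 55.9 in G4, 20.6 in mC3 and 14.6 in mE6 among astrocytes. They were 12.6 CPM in F5, 19.9 in mG2 and 41.4 in mG6, and 10.5, 8.54, 6.29 and 8.31 CPM in Ch3, Ch5, Ch7 and Ch8. The 2 clones with the most Airn, C2 and G4, were among the 3 with the least Igf2r, but F5 had low levels of both. Over the 12 clones Pearson's r of log2(CPM + 0.1) between Airn and Igf2r was -0.602 (permutation p = 0.0385, adjusted over the 4 relations computed p = 0.0513) and Spearman's rho -0.448 (permutation p = 0.147, adjusted p = 0.196). Without the 2 clones farthest from the median Airn level r was -0.202, so with all 12 clones the relation rested on them. Within the 7 clones with maternal Igf2r, a set formed by a measured value, r was 0.455 and rho 0.536, given as a description. Centred on the 3 groups, r was -0.423 (exact permutation p = 0.294, adjusted p = 0.392) and rho -0.180 (exact permutation p = 0.645), and neither passed. Leaving out 1 clone at a time gave a pooled r from -0.473 without C2 (permutation p = 0.141) to -0.807 without F5 (permutation p = 0.00195). Without the 2 farthest clones as well, r was -0.794 with F5 left out and -0.0719 to -0.481 with any other clone left out. The centred r ranged from -0.237 without C2 (exact permutation p = 0.587) to -0.836 without F5 (exact permutation p = 0.0491). F5 gave the strongest relation of all these omissions, so its values describe 1 clone and are no separate test.

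Between groups, the level and allelic balance of Igf2r and Airn were compared with edgeR's quasi-likelihood test with Benjamini-Hochberg adjustment. Igf2r averaged 112 ± 21.7 CPM (SD, n = 4) in Ch clones, 62.3 ± 61.7 (n = 5) in astrocytes and 59.3 ± 60.6 (n = 3) in poly(A) NPC clones. Airn averaged 40.6 ± 27.1 CPM in astrocytes, 24.6 ± 15 in poly(A) NPC clones and 8.42 ± 1.74 in Ch clones. For astrocytes against poly(A) NPC clones, none of the 5 members was called, where 25.5% of the 18192 genes tested were. The log2 fold change was 0.11 ± 1.0 (SE; adjusted p = 0.952) for Igf2r and 0.76 ± 0.62 (adjusted p = 0.400) for Airn, and neither passed. With sex as a covariate it was 0.91 for Igf2r (adjusted p = 0.392) and 0.26 for Airn (adjusted p = 0.835). For Ch against poly(A) NPC clones 45.2% of 18397 genes were called. Airn was lower in Ch clones, with a log2 fold change of -1.37 ± 0.40 (adjusted p = 0.0248). The call of Airn was lost without Ch5, Ch7 or Ch8 (adjusted p = 0.0610 to 0.0715), where the change was still -1.36, -1.25 and -1.35, and without mG6, where it was -0.75 (adjusted p = 0.0714). Igf2r differed by 1.08 ± 0.71 (adjusted p = 0.247). The change was 0.56 without F5, 0.87 without mG6 and 2.28 without mG2, whose Igf2r level lies in the range of the Ch clones. Since mG2 was singled out by that level, the fit without it cannot test the difference.

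Among the Ch clones 16.6% of 17095 genes differed in level, and Igf2r was 1 of the 2 members tested that did (adjusted p = 0.0109). Its 2 libraries gave 127 and 134 CPM in Ch3, 117 and 108 in Ch5, 80.1 and 82.2 in Ch7 and 140 and 107 in Ch8, so that only the Ch7 libraries lay apart from the rest. Without either Ch7 library or the second Ch3 library the call was lost (adjusted p = 0.0533 to 0.0950). Airn gave 9.28 and 11.8, 10.2 and 6.92, 7.07 and 5.51, and 9.54 and 7.08 CPM in the 2 libraries of Ch3, Ch5, Ch7 and Ch8, and its levels overlapped between clones (adjusted p = 0.167).

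Allelic balance was compared on the Cast and 129 reads of each library. Against an equal contribution of both alleles, Igf2r and Airn were both called in Ch clones, where 37.9% of 11428 genes were called. The log2 ratio of Cast to 129 reads was -3.93 ± 0.19 (SE) for Igf2r (adjusted p = 1.69e-04), and for Airn, whose ratio has no 129 read to rest on, the adjusted p was 0.00670. In astrocytes, where 29.5% of 11529 genes were called, the same test gave adjusted p = 0.834 for Igf2r and 0.617 for Airn, and in poly(A) NPC clones, where 15.3% of 11949 genes were called, 0.760 and 0.382. The Cast share of Igf2r averaged 46 ± 35.2% (SD, n = 5) in astrocytes, 42.9 ± 30.9% (n = 3) in poly(A) NPC clones and 6.28 ± 1.80% (n = 4) in Ch clones. No member was called between astrocytes and poly(A) NPC clones (background 0.703% of 10959 genes; Igf2r adjusted p = 0.984, Airn 0.973). Between Ch and poly(A) NPC clones (9.07% of 10873 genes) the adjusted p was 0.178 for Igf2r and 0.369 for Airn. With DESeq2 on all clones the adjusted p was 0.0122 for Igf2r and 0.0180 for Airn. The log2 difference in the Cast to 129 ratio of Igf2r was -3.33 with all clones. It was -4.55 without mG2, the 1 poly(A) NPC clone with maternal Igf2r and paternal Airn, and -2.34 without F5. As mG2 was singled out by its measured shares, the fit without it cannot test the difference and is given as a description. Among the Ch clones 8.82% of 10083 genes differed in allelic balance, and Igf2r did not pass (adjusted p = 0.156, but 0.0442 without the first Ch3 library).

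Between the 2 libraries of a Ch clone Fisher's exact test found a difference for 0.322% of 42611 gene and clone pairs after adjustment, and for none of the members. The Cast share of Igf2r was 6.78 and 10.3% in Ch3 (adjusted p = 0.538), 3.88 and 5.91% in Ch5 (adjusted p = 0.743), 4.44 and 6.19% in Ch7 (adjusted p = 0.881) and 5.17 and 7.73% in Ch8 (adjusted p = 0.688). The Wilson intervals of both libraries overlapped in each of the 4 clones, and the second library had the higher share in all 4.

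The 4 nearest measured genes on each side, 51461 to 3695758 bp away, gave 96 values over the 12 clones, of which 90 lay between 35 and 65% Cast and 0 were monoallelic. The 6 values outside came from Acat2, an acetyl-CoA acetyltransferase, whose Cast share was 61.1 to 68.7% in all 12 clones. Over the 9569 autosomal genes, 1.49% (mG6) to 5.16% (Ch5) were monoallelic in a single clone. A count of 0 here is therefore not particular to this locus. Tcp1, a chaperonin subunit 56445 bp from the locus, stayed at 52.4 to 54.7%, and Map3k4, a kinase on the Igf2r side, at 44.6 to 51.7%. In clone 129, where the parental pattern of Igf2r and Airn was inverted, Map3k4 was at 51.7% and Mrpl18, a mitochondrial ribosomal protein gene on the Airn side, at 48%. The median Cast share of the 69 to 78 genes within 10 Mb of the locus was 48.1 to 53.2% in the 12 clones. Slc22a2 and Slc22a3, which Airn silences in the placenta, had fewer than 20 allele-specific reads in all clones. Of the 15 genes listed for this domain, 8 were measured in 10 or more clones, and all 8 stayed between 15 and 85% Cast in all 12 clones.

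**Figure D3:**
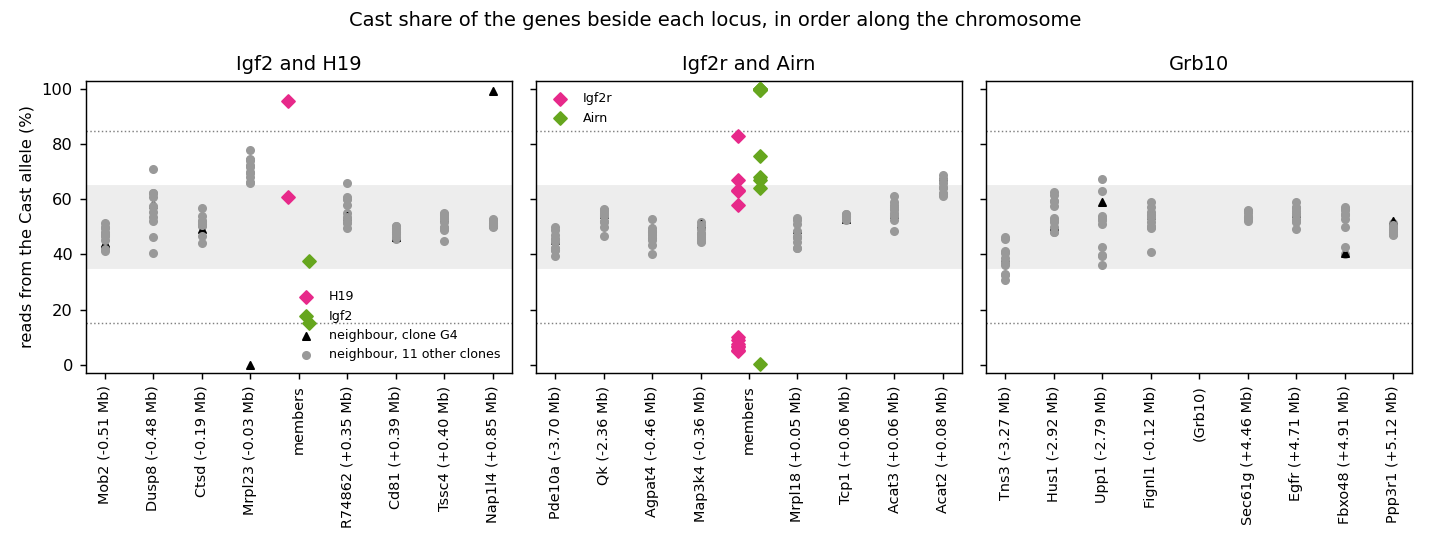
Cast share of the 4 nearest measured genes on each side of the loci, in order along the chromosome with their distance in Mb, as points for the 12 clones (triangles for G4), and of the members with at least 20 allele-specific reads as diamonds. The grey band marks 35 to 65% and dotted lines 15 and 85%. Neighbours of Igf2r and Airn stay near the band while Igf2r spreads from 4.81 to 83.1% and Airn from 0.232 to 100%, and beside Igf2 and H19 the G4 values of Mrpl23 and Nap1l4 stand apart.

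H19 (ENSMUSG00000000031.15, a lncRNA at chromosome 7, 142575530 to 142578146) was highest in astrocytes of clone 129. Its level was 24.1 CPM in clone 129 and 2.41 in C2, 0.223 in G4, 0.525 in mC3 and 0.150 in mE6. NPC clones had 0.00969 (F5), 0.0267 (mG2), 0.156 (mG6), 0 (Ch3), 0.0396 (Ch5), 0.248 (Ch7) and 0.319 CPM (Ch8), from 0 to 16 reads per clone. In clone 129, 828 of 866 allele-specific reads came from the paternal Cast allele, 95.6% (94.0 to 96.8), the opposite of the maternal expression known for H19. In C2, 39 of 64 reads came from Cast, 60.9% (48.7 to 71.9). The other clones had 15 or fewer allele-specific reads, with 15 of 15 from 129 in mC3 and 9 of 9 in G4, but 5 of 6 from Cast in mE6. The log2 fold change of astrocytes against poly(A) NPC clones was 6.44 ± 2.27 and did not pass in edgeR (adjusted p = 0.0684), while DESeq2 gave an adjusted p of 9.42e-05. Without clone 129 the change was 3.71 (edgeR adjusted p = 0.0738), and with sex as a covariate 3.63 (adjusted p = 0.295). Clone 129 also had the highest Gfap, at 1885 CPM, and the lowest Gja1, an astrocyte connexin, at 2.54 CPM among the astrocyte clones. The 6 mesenchymal or meningeal markers, whose summed level was 3.97 to 212 CPM in astrocytes, did not single out clone 129. Lum (4.98 CPM) and Dcn (1.98 CPM) were highest in clone 129 among the astrocyte clones. Col1a1 (204 against 10.0 CPM in clone 129), Col3a1 (1.89 against 1.20) and Pdgfrb (2.07 against 0.225) were highest in C2, and Col1a2 was at or near 0 in all clones. Their part in the H19 level was not tested.

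Igf2 (ENSMUSG00000048583.16, chromosome 7, 142650768 to 142666816) was low in all clones. Poly(A) NPC clones had 3.62 CPM in mG2, 1.74 in mG6 and 0.320 in F5, astrocytes 0.695 in clone 129, 0.179 in C2, 0.372 in G4, 0.415 in mC3 and 0.687 in mE6, and Ch clones 0.434, 0.241, 0.227 and 0.0594. Only mG2 and mG6 stood above the astrocytes, and F5 lay within their range. The log2 fold change of astrocytes against poly(A) NPC clones was -1.97 ± 0.72 (adjusted p = 0.0762 in edgeR and 0.0255 in DESeq2), with -1.10 without mG2 (edgeR adjusted p = 0.356) and -2.47 without F5 (edgeR adjusted p = 0.0291). With sex as a covariate the change was -1.28 (edgeR adjusted p = 0.298). Igf2 was lower in Ch than in poly(A) NPC clones, by a log2 fold change of -2.82 ± 0.83 (adjusted p = 0.0257). That call was lost without Ch5, Ch7 or Ch8 (adjusted p = 0.0586 to 0.0700), where the change was still -2.81, -2.80 and -2.49, without mG2 (-1.95, adjusted p = 0.0930) and with the first library of each Ch clone (-2.60, adjusted p = 0.0616). In mG2, 39 of 46 allele-specific reads came from the maternal 129 allele (Cast share 15.2%, interval 7.57 to 28.2), and in mG6 15 of 24 (37.5%, 21.2 to 57.3), where paternal expression is known for Igf2. Summed over the 12 clones, 91 of 115 allele-specific Igf2 reads came from 129. The Ch clones had 49 Igf2 reads in all and 0 allele-specific ones. Over 12 clones the level of Igf2 and that of H19 gave r = -0.119 (permutation p = 0.695, adjusted p = 0.695), rho = -0.273 (permutation p = 0.393) and, centred on the groups, r = -0.0283 (exact permutation p = 0.914). Without the 2 clones farthest from the median Igf2 level r was 0.208. Their shares could not be related, since in no clone did both genes reach 20 allele-specific reads.

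Grb10 (ENSMUSG00000020176.17, chromosome 11, 11930499 to 12037428) was close to the detection limit. It had 0 to 21 reads per clone, 102 in all, or 0 to 0.229 CPM, where 3 reads amount to 0.0291 to 0.0630 CPM. The mean was 0.101 ± 0.0834 CPM (SD, n = 5) in astrocytes, 0.110 ± 0.0431 (n = 3) in poly(A) NPC clones and 0.134 ± 0.0654 (n = 4) in Ch clones, and the ranges overlapped. The log2 fold change between astrocytes and poly(A) NPC clones was -0.04 ± 0.90 (adjusted p = 0.981). Of 20 allele-specific reads over all clones, 8 came from Cast and 12 from 129, with 4 at most in a clone, so its allelic expression was not measurable at this depth. Its 8 neighbours gave 90 of 94 values between 35 and 65% Cast and 0 monoallelic ones. Of the 9569 autosomal genes, 1.49 to 5.16% were monoallelic in a clone.

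**Figure D4:**
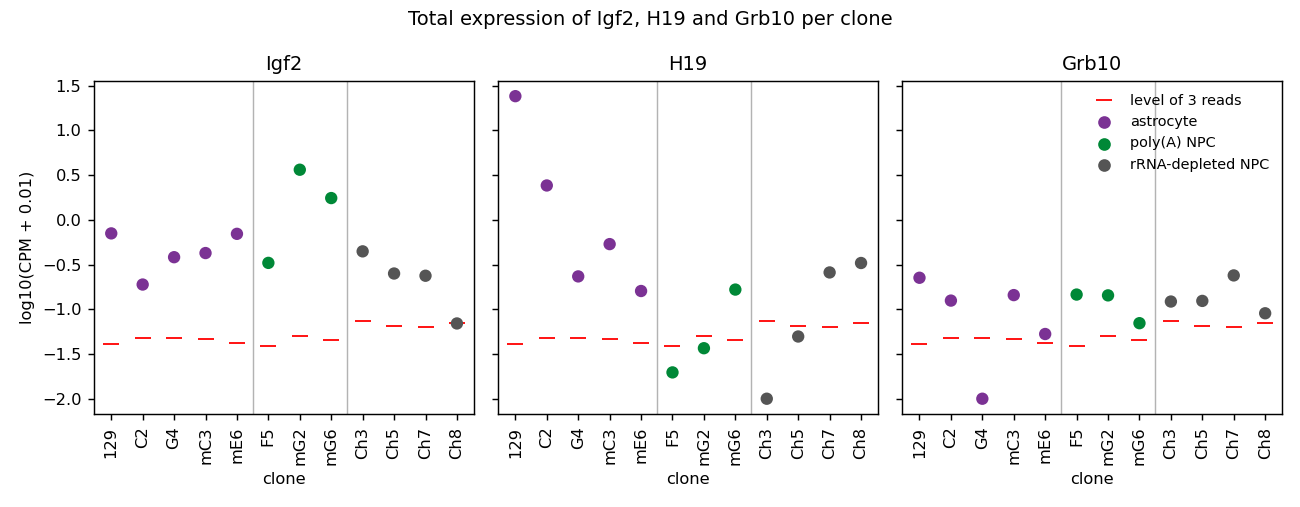
Total expression of Igf2, H19 and Grb10 per clone as log10(CPM + 0.01), coloured by group, with a red dash at the level of 3 reads in that clone. H19 in clone 129 (24.1 CPM) and Igf2 in mG2 (3.62 CPM) are the highest points, and Grb10 reaches 0.229 CPM at most.

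Of 96 values of the 8 genes measured nearest to Igf2 and H19, 2 were monoallelic, both in G4, where 4.96% of the 9569 autosomal genes were. Of these 96 values, 81 lay between 35 and 65% Cast. Mrpl23 lay outside this range in all 12 clones, Nap1l4 in G4, Dusp8 in Ch8 (71.0%) and R74862 in clone 129 (66.1%), and the other 4 genes in none. Mrpl23, a mitochondrial ribosomal protein gene 34783 bp from H19, had 0 Cast reads among 116 in G4, which allows a Cast share of up to 2.59%, and 65.9 to 77.9% in the 11 other clones. On the far side of Igf2, Cd81 and Tssc4 were at 46.5 and 53.4% in G4, and Nap1l4, 846763 bp away, at 99.4%. From Nap1l4 on, all 12 measured genes up to Tpcn2, including Cars, Dhcr7, Cttn and Ccnd1, were at 98.8 to 100% Cast in G4. In the 11 other clones the same genes gave 132 values of 40.6 to 67.8%, of which 130 were between 35 and 65% and 0 monoallelic. Of the 20 genes listed for the Igf2 domain, 8 were measured in 10 or more clones. Among those, Tnfrsf23, a decoy receptor gene, was at 92.0% Cast in clone 129, 0% in C2 and 3.70% in F5. Cdkn1c, a maternally expressed cell cycle inhibitor that restrains growth, reached 20 allele-specific reads in mG2 alone, with a Cast share of 0%.

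Among 26 other imprinted genes listed for comparison, 13 were measured in 10 or more clones. On the allele of the known parent they were monoallelic for 9 of 13 genes in mG2, 8 in mE6, 8 in Ch3, 6 in mC3, 5 in Ch8, 5 in mG6, 4 in Ch5, 4 in Ch7, 2 in G4, 0 in C2 and 0 in F5, and for 3 of the 11 measured in clone 129. On the opposite allele 2 were monoallelic in Ch5 and 1 each in clone 129, C2, mC3, mE6, Ch7 and Ch8. Over the 9569 autosomal genes measured in all 12 clones, 1.49% (mG6) to 5.16% (Ch5) were monoallelic in a single clone, from either allele. Peg3, a paternally expressed zinc finger gene, was at 99.8 to 100% Cast in the 7 clones with maternal Igf2r and at 47.3 to 52.0% in the 5 others. Its neighbour Usp29 divided the same way, with 90.2 to 100% and 41.0 to 52.7%. Mest, a paternally expressed growth gene, was at 98.4 to 100% Cast in all 7 clones and in 1 of the 4 others measured, while in C2 it was at 0.0812%. Snrpn was above 85% in the 7 clones and in 2 of the 5 others. Other genes did not follow this division: Mkrn3 and Zrsr1 were monoallelic in 0 of 12 clones, and Plagl1 was monoallelic from Cast in 2 of the 7 clones, from 129 in Ch5 (6.12%), Ch7 (1.41%) and Ch8 (0%), and from either allele in 0 of the 5 others. These counts were not tested, and the order of clones was chosen by a measured value.

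The genes most like the members over the 12 clones, after centring on the 3 groups, are given as a description. In Cast share Igf2r was most like Fam171b (r = 0.933), Prex2 (r = 0.909) and Fndc5 (r = 0.908) among 10310 genes, none on chromosome 17. Airn was most like Gm16574 (r = 0.996), Slc25a20 (r = 0.945) and Shc1 (r = 0.938). The shares of both members fell into separate clusters of clones, so these coefficients mainly show which genes divide the clones in the same way. Gm16574 is annotated as a pseudogene that starts 77474 bp into the span of Airn, so both genes share part of their span. Its Cast share was 0% of 707 reads in clone 129, 65.1% in C2 and 98.6% in mG2. In level, among 20644 genes, Igf2r was most like Amigo2 (r = 0.929), Gm5822 (r = 0.927) and Zfp248 (r = 0.916), and Airn most like Klhl24 (r = 0.982), Tnrc6a (r = 0.979) and Cdh6 (r = 0.971). For H19 these were Spon2 (r = 0.964), Vegfa (r = 0.961) and Abr (r = 0.950), for Igf2 Ikzf5 (r = 0.937), Ypel4 (r = 0.934) and Galnt2 (r = 0.910), and for Grb10 Rnf40 (r = 0.942), Sirt6 (r = 0.931) and Gba2 (r = 0.912). These are the highest of many coefficients over the same 12 clones, those of Grb10 and Igf2 rest on few reads, and so do those of H19, with 0 to 43 reads in 10 of the clones beside 189 in C2 and 2353 in clone 129.

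Several genes of the IGF axis outside the members were well expressed where Igf2 was low, such as Igfbp2, which averaged 2010 ± 1667 CPM (SD, n = 5) in astrocytes and 1579 ± 609 (n = 3) in poly(A) NPC clones. Of 24 listed genes (ligands, receptors, binding proteins, adaptors and IGF2 mRNA-binding proteins), 20 were tested between astrocytes and poly(A) NPC clones and 3 were called, against 25.5% of all genes, with a median log2 fold change of 0.28 beside 0.08 for all genes. Igfbp3, which carries IGFs in the extracellular space, was lower in astrocytes (386 to 1328 against 1981 to 4573 CPM, log2 fold change -1.85 ± 0.49, adjusted p = 0.0274). Igfbp6, which prefers IGF2, was higher (0.191 to 0.269 against 0.0267 to 0.0388 CPM, 2.84 ± 0.39, adjusted p = 0.00208). Pappa, a protease that cuts IGF-binding proteins, was higher as well (0.0716 to 36.6 against 0 to 0.0133 CPM, adjusted p = 0.0185), and its 2 ranges did not overlap. In the poly(A) NPC clones, where 3 reads amount to 0.0291 to 0.0400 CPM, Igfbp6 and Pappa were at the detection limit, so the size of these changes is uncertain. The receptors Igf1r (39.3 to 227 CPM in astrocytes, 104 to 211 in poly(A) NPC clones, adjusted p = 0.536) and Insr (39.3 to 80.0 against 38.4 to 60.8 CPM, adjusted p = 0.550) did not pass, nor did Irs2 (31.4 to 75.7 against 81.6 to 130 CPM, adjusted p = 0.0558). M6pr, the other mannose 6-phosphate receptor, was at 121 to 144 and 91.5 to 152 CPM (adjusted p = 0.511). The ligand Igf1 was low in all groups, with 0.523 CPM at most.

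Between Ch and poly(A) NPC clones 16 of the 24 were tested and 9 were called, 3 higher and 6 lower in Ch clones, against 45.2% of all genes, with a median of -0.61 beside -0.01. Igf2bp1 and Igf2bp3, which bind Igf2 mRNA, were higher, at 18.5 to 59.4 against 0.0969 to 2.02 CPM (log2 fold change 5.54 ± 1.07, adjusted p = 0.00421) and 29.7 to 60.2 against 0.0969 to 3.45 CPM (5.17 ± 1.08, adjusted p = 0.00603). Grb14, an adaptor of the same family as Grb10, was lower, at 0.257 to 0.661 against 5.74 to 17.1 CPM (-4.54 ± 0.52, adjusted p = 3.64e-04). Igfbp7, another IGF-binding protein, was lower (0.0512 to 0.286 against 0.107 to 2.48 CPM, -2.81 ± 0.94, adjusted p = 0.0414), and these ranges overlapped. Igfbp4 was lower too (140 to 203 against 715 to 1917 CPM, -2.61 ± 0.34, adjusted p = 6.29e-04). Among the Ch clones themselves 10 of 14 tested genes of the axis differed in level, against 16.6% of all genes.

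**Figure D5:**
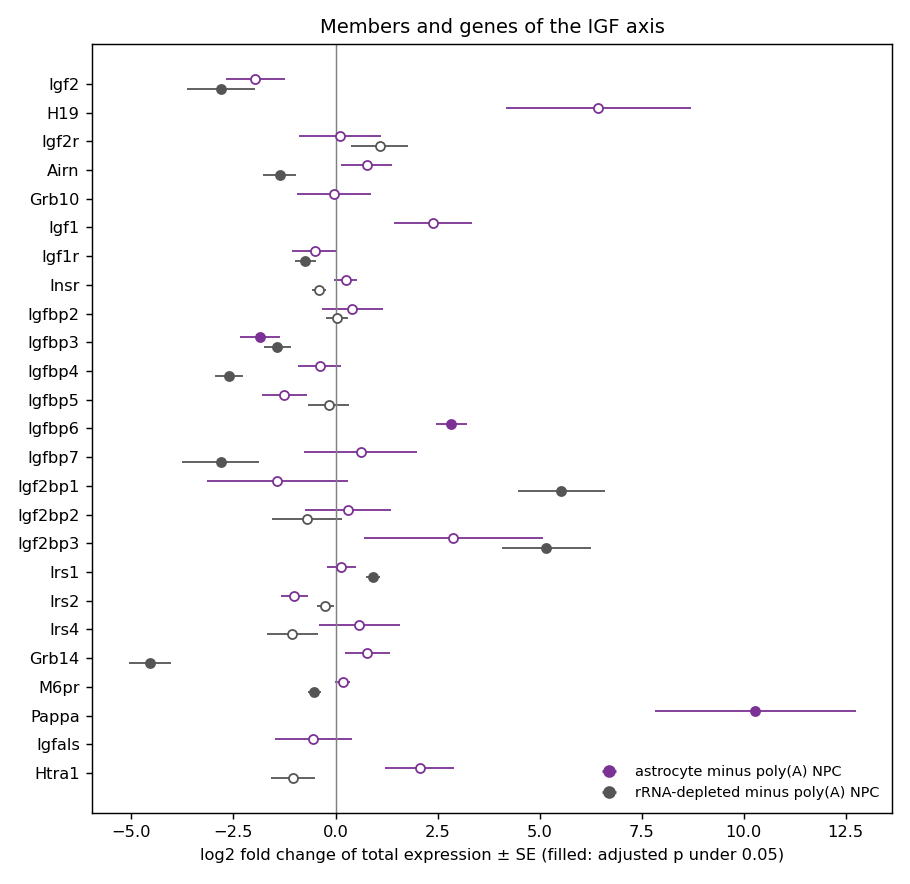
Log2 fold change of total expression (points, with SE as bars) of the members and the listed genes of the IGF axis, for astrocytes minus poly(A) NPC clones and for rRNA-depleted (Ch) minus poly(A) NPC clones. Filled points passed an adjusted p of 0.05: Igf2 and Airn are filled for the second comparison only, and no member for the first.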

How the data were processed

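RNA-seq of 16 libraries from 12 clones was analysed. The authors aligned reads to an N-masked GRCm38/mm10 genome with TopHat2 2.1.0 and Bowtie2, split them by strain SNPs with SNPsplit, and counted them by strand with featureCounts 1.5.1; the annotation release is not given in the sources used here. The deposited counts per gene are reads from Cast, reads from 129 and all reads; the deposited fraction is Cast over both alleles, left empty below 10 reads, and was recomputed here from the counts.

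Symbols were found for 32722 of 50600 gene identifiers and positions for 25973 (RefSeq, GRCm38.p6). CPM were scaled by TMM over the 16 libraries; Ch libraries of a clone were averaged for CPM and summed for allelic reads. Total and allelic counts were fitted across all genes with edgeR 4.0.16 (quasi-likelihood test, filterByExpr or at least 20 allele-specific reads, adjusted p under 0.05), with DESeq2 1.42.0 as an alternative; 4 of the fits were tested on simulated data. A pseudocount of 0.1 was used in log2 levels. Named genes were the members, the 4 nearest genes a side with 20 reads in at least 10 clones, examples from the IGF axis (the 4 largest changes called and up to 4 others) and from lists of imprinted and domain genes, and the 3 most alike genes. The members and lists were chosen with earlier results of these data known. The numbers of the Ch libraries were not used as a pairing.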

Additional observations from a re-analysis of the deposited data

Results flagged for a closer look

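H19 in astrocytes of clone 129 lay far from the other 4 astrocyte clones, at 24.1 CPM with the next value at 2.41 CPM, a gap of 0.905 of the group's range where 0.71 is the 95% limit for 5 values. The gap was computed on CPM and not on log2 levels, where high values stand less far apart. H19 in clone 129 was the only such value among the 13 sets of member levels or shares examined in this way, and chance gives about 1 in 20.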

How the results depend on the processing

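Each choice was changed alone. Outside the fits that leave out a library or clone, 58 of 66 summary results stayed within 1.5 times their main value or kept their side of the threshold. The others were the genes called in level among the Ch clones without a filter on low counts (4361 against 2834), DESeq2 for allelic balance among the Ch clones (587 against 889), for astrocytes against poly(A) NPC clones (942 against 77), for Ch against poly(A) NPC clones (1724 against 986) and for poly(A) NPC clones against equal alleles (4875 against 1825), and 3 counts of monoallelic clones. With limits of 5% and 95%, 1 clone (Ch5) in place of 7 was monoallelic for Igf2r, and with at least 10 allele-specific reads Igf2 had 1 such clone and H19 2. The cause of these changes was not tested, except that fewer reads admit more clones. Without the filter Airn was called among the Ch clones (adjusted p = 0.00741).

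Leaving out 1 library or clone gave 2269 to 4849 genes called in level for astrocytes against poly(A) NPC clones, 1509 to 3244 among the Ch clones and 6277 to 10204 for Ch against poly(A) NPC clones. For allelic balance it gave 762 to 1024 among the Ch clones, 5 to 82 for astrocytes against poly(A) NPC clones, 646 to 1374 for Ch against poly(A) NPC clones, and against equal alleles 2001 to 2967 in astrocytes, 0 to 174 in poly(A) NPC clones and 3018 to 5083 in Ch clones. The centred r of Airn and Igf2r levels ranged from -0.836 to -0.237. Signs turned for values that were not called: in level between astrocytes and poly(A) NPC clones Igf2r ranged from -0.61 to 1.32 and Grb10 from -0.52 to 0.23, in allelic balance between them Igf2r from -1.04 to 1.17 and Airn from -2.17 to 1.32, and against equal alleles Igf2r from -1.31 to 0.46 in astrocytes and from -1.59 to 0.62 in poly(A) NPC clones.

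With library number as a replicate block, 3391 genes were called in level among the Ch clones (2834 without) and 887 in allelic balance (889 without), and Igf2r had adjusted p = 0.00615 and 0.247. Deviations of same-numbered libraries correlated at -0.0747 to 0.145, so the numbers were not taken as a pairing. Shares of Grb10, and of Igf2 against H19, gave no value under any setting. Depth limits Igf2, H19 and Grb10, and the groups of 3 to 5 clones limit what the comparisons of Igf2r and Airn could detect.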
